A study of Homo sapiens with 16 samples.

Results

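Aminoacyl-tRNA synthetases charge each tRNA with its amino acid before translation. Their mRNAs were examined in clones of MDA-MB-231, a human triple-negative breast cancer cell line, with and without introduced tristetraprolin (TTP). The gene ZFP36 encodes TTP, which binds AU-rich elements of mRNAs and speeds their decay. The synthetases were taken by name, as the rows whose symbol is 1 letter followed by ARS, with or without a final digit, together with EPRS, FARSA and FARSB. This rule found 37 of the 14857 listed genes. The 17 whose symbol ends in ARS2 encode mitochondrial enzymes, and the other 20 encode cytosolic ones. Several symbols are older forms, so that KARS is the present KARS1.

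The 4 groups are TTP_E11 and TTP_H3, which carry TTP, and EV_A and EV_B, which carry an empty vector, with 4 libraries of biological replicates each. Each is 1 stably transfected clone of cells that hold a tet-off system, in which doxycycline keeps the introduced gene silent, and all were grown under G418 and hygromycin B. The labels state growth with doxycycline, at 2 µg/mL, for the cells with TTP, and a washout of doxycycline and of the selection drugs for at least 24 h before experiments. With 2 clones an arm and doxycycline maintenance stated for the TTP cells, the TTP plasmid, the clone and the doxycycline history cannot be told apart. Groups follow the library names, because the titles call 7 of the 8 TTP libraries EV.

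The libraries held 14380767 to 22066098 reads on the listed genes. Levels are normalized counts, the reads on a gene divided by a size factor of the library. ZFP36 stood between 10160.1 and 15041 normalized counts in the TTP libraries, against 213 to 282 in the EV libraries, a ratio of means of 51.7 (exact two-sided permutation test of 8 against 8 libraries, p = 0.000155, the smallest it can give). The 8 libraries of an arm come from 2 clones, so this p-value does not measure the spread between clones. TTP and EV libraries lay apart on the first principal component (60.4% of the variance), and EV_A and EV_B on the second (10.1%). TTP_H3 replicate 3 and EV_B replicate 4 stood apart from the other libraries of their clones. All 7 markers expected of the line were listed (VIM, CD44, EGFR, CAV1, MSN, KRT7 and KRT18; 1 was higher and 4 lower in TTP clones, among them VIM by -0.52 and CD44 by -0.55 on the log2 scale), and ESR1, PGR and CDH1 were not among the listed genes. ERBB2 was listed, at 2085 to 2963. Of markers of other cell types, 2 of 5 immune genes (CSF1R and LYZ, summed level 32.9 to 92.1 in TTP and 79.9 to 156 in EV libraries), 1 of 4 endothelial genes (KDR, 95.1 to 164 in TTP and 33.3 to 55.5 in EV) and 2 of 3 fibroblast genes (COL1A1 and PDGFRB, 380.1 to 597 in TTP and 298 to 580.5 in EV) were listed, while PTPRC, CD3E, PECAM1, CDH5, VWF and DCN were not among them. Their part in the results below was not tested. In bulk RNA, fewer cells of a type and less RNA per cell cannot be told apart.

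As background, animal cells use 1 set of synthetases in the cytosol and another in mitochondria, all encoded in the nucleus. The enzymes fall into class I and class II by the fold of the catalytic domain. The cytosolic enzymes LARS, IARS, QARS, RARS, KARS, MARS, EPRS and DARS join the scaffold proteins AIMP1, AIMP2 and EEF1E1 (AIMP3) in the multisynthetase complex. GARS and KARS each serve both compartments, and mitochondria make glutaminyl-tRNA without a glutaminyl synthetase of their own, by amidating a misacylated tRNA. Many genes of cytosolic synthetases are known targets of ATF4, the transcription factor of the integrated stress response, which binds the C/EBP-ATF response element.

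The core of that element, TGATGCAA on either strand, was searched for in RefSeq promoters on GRCh38.p14, from 250 bases before to 50 bases after each start. It was found in 6 of the 16 cytosolic genes with a promoter entry (37.5%), in 0 of the 14 mitochondrial ones and in 53 of 10916 listed genes (0.486%). These promoters are shown because the match was found in cytosolic and in 0 mitochondrial genes. They are printed on the strand of the gene, with the match in capitals, and hold TGATGCAA or its reverse complement.
AARS (chr16:70289675-70289704, minus strand): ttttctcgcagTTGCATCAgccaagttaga
CARS (chr11:3057407-3057436, minus strand): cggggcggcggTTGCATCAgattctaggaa
IARS (chr9:92293692-92293721, minus strand): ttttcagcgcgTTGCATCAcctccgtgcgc
MARS (chr12:57488053-57488082, plus strand): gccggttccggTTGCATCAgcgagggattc
NARS (chr18:57621804-57621833, minus strand): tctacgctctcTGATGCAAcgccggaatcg
TARS (chr5:33440956-33440985, plus strand): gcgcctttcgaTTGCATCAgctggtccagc
The looser form TGATGNAA, which includes these matches, was found in 180 listed promoters (1.65%) and in 1 further synthetase, the mitochondrial YARS2.
YARS2 (chr12:32756076-32756105, minus strand): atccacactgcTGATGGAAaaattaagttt
The first base of the match lay 13, 4 and 2 bases before the start in IARS, MARS and CARS, at bases 3 and 15 from the start in TARS and NARS, and 187 and 197 bases before it in AARS and YARS2. A match is a description of these letters and not a site of binding. The promoters of AARS2, DARS, LARS, VARS, VARS2 and YARS were among those not analysed here.

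To see which synthetase mRNAs differed with TTP, the mean of the TTP clones was compared with the mean of the EV clones. Among the 37 synthetases, 19 were higher and 11 lower in TTP clones and 7 did not pass, at an adjusted p under 0.05 (limma on log2(value + 1), Benjamini-Hochberg over all genes). Over all genes, 35.4% were higher and 34.6% lower. The changes were small: the median size of the log2 change was 0.18, and only NARS2 exceeded 0.5 (2.70% of the synthetases, against 22.8% of all genes). Of the cytosolic enzymes 9 rose, 6 fell and 5 did not pass (median log2 change 0.03), and of the mitochondrial ones 10 rose, 5 fell and 2 did not pass (median 0.18), where the median of all genes was 0.00. A gene was called concordant when each TTP clone differed from each EV clone in the same direction, which held for 8 higher synthetases (19.0% of all genes) and 7 lower ones (19.5% of all genes). The higher ones were KARS, QARS, NARS2, AARS2, FARS2, HARS2, EARS2 and RARS2, and the lower ones included DARS, IARS, WARS, NARS, CARS2 and IARS2. TTP and EV libraries did not overlap for 14 of the 37 synthetases (31.8% of all genes), 6 cytosolic and 8 mitochondrial.

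The error in these p-values is that among cultures of the same clone. When the reads of a clone were added up and 2 sums compared with 2, edgeR called 9 synthetases (28.8% of all genes passed): NARS2, AARS2, FARS2, HARS2 and QARS higher, and the lower ones included IARS2, CARS2 and DARS, with adjusted p between 0.0109 and 0.0479.

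**Figure D1:**
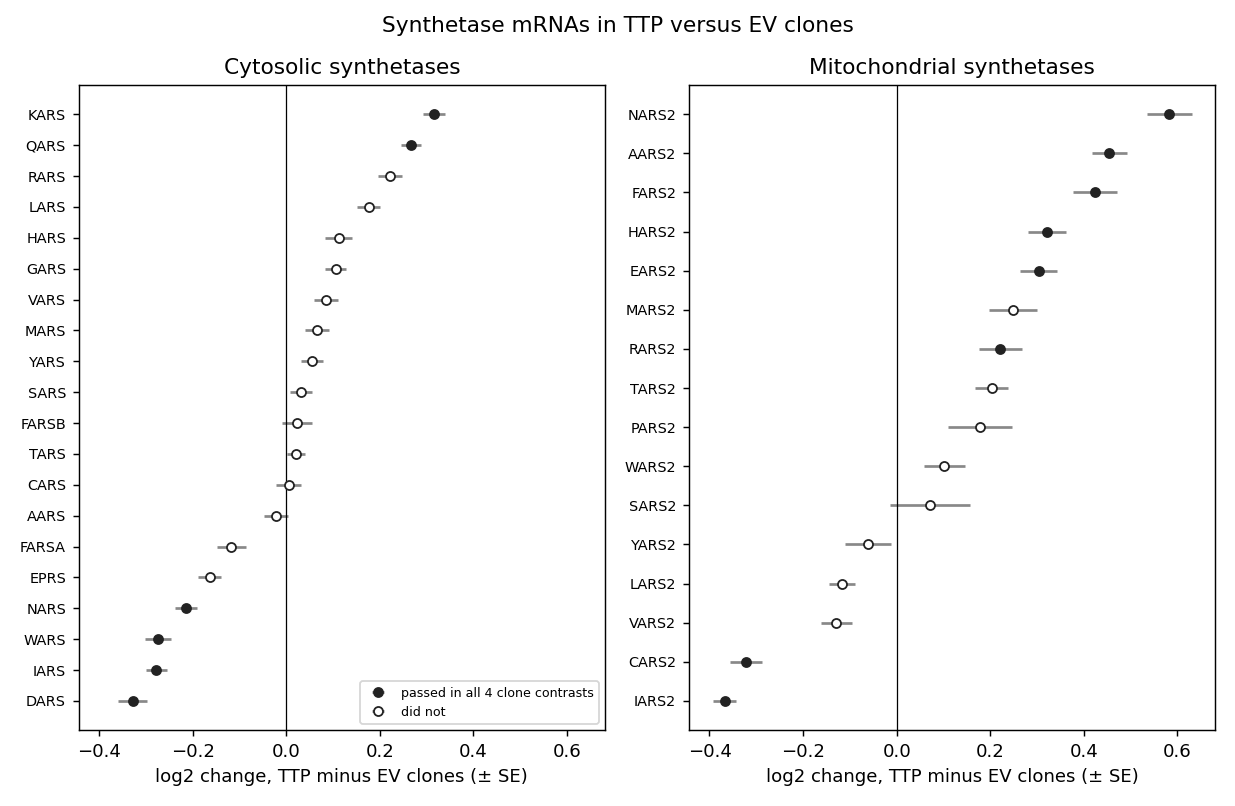
Log2 change of 36 synthetase mRNAs, TTP minus EV clones, as points with bars of 1 SE from limma, for 20 cytosolic (left) and 16 mitochondrial (right) genes; filled points are genes that differed in the same direction between each TTP clone and each EV clone. The changes shown run from -0.37 (IARS2) to 0.58 (NARS2), and the cytosolic ones lie between -0.33 (DARS) and 0.32 (KARS).

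Levels between genes were compared per kilobase of annotated exon, as the mean over the 16 libraries. Threonyl-tRNA synthetase (TARS) was the most abundant cytosolic form, at 1806 normalized counts per kilobase, followed by VARS (1229.9) and GARS (1129), and CARS was the least abundant (177). Among mitochondrial forms IARS2 stood at 920.1 per kilobase, while the other 16 lay between 45.9 (SARS2) and 197 (AARS2). The summed level of the 20 cytosolic genes was 74709.9 ± 970.2 normalized counts in TTP_E11 and 74516 ± 833 in TTP_H3, against 69200.2 ± 663 in EV_A and 79598 ± 1616 in EV_B (SD, n = 4 each). Both TTP clones lay between the EV clones in this sum. The sum of the 17 mitochondrial genes was 13276 ± 121 in TTP_E11 and 13171 ± 253 in TTP_H3, against 13415 ± 69.7 in EV_A and 14084 ± 203 in EV_B. Here both TTP means lay below both EV means, which rested on IARS2. The other 16 summed to 9885 ± 51.1 in TTP_E11 and 9868 ± 206 in TTP_H3, against 9097 ± 96.5 in EV_A and 9766 ± 218 in EV_B, with both TTP means above both EV means.

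Within the multisynthetase complex the synthetases moved in both directions. KARS, which charges tRNA-Lys in both compartments (chromosome 16, 75627474 to 75648643, GENCODE 29 on GRCh38, minus strand), read 3077, 3051, 3154 and 3184 normalized counts in the replicates of TTP_E11 and 3199, 3157, 3250.0 and 3257 in TTP_H3, against 2264, 2352, 2361 and 2311 in EV_A and 2736, 2781, 2702 and 2932 in EV_B. Every TTP library was above every EV library, with EV_B between EV_A and the TTP clones (log2 change 0.32 ± 0.0239 SE, adjusted p = 1.97e-13). QARS, the glutaminyl enzyme (chromosome 3, 49095932 to 49105135), stood at 4173 to 4654 normalized counts (median 4355) in the 8 TTP libraries, against 3519 to 3831 (median 3595) in the 8 EV libraries, again without overlap (log2 change 0.27 ± 0.022 SE, adjusted p = 1.58e-12). RARS, which charges tRNA-Arg, had 3595 to 4115 normalized counts (median 3776) in the 8 TTP libraries, against 2965 to 3598 (median 3243) in the 8 EV libraries (log2 change 0.22 ± 0.0252 SE, adjusted p = 2.31e-09). LARS, the leucyl enzyme that is also known as a leucine sensor for mTORC1, had 3639 to 4137 normalized counts (median 3989) in the 8 TTP libraries, against 3283 to 3854 (median 3505) in the 8 EV libraries (log2 change 0.18 ± 0.025 SE, adjusted p = 1.91e-07). For RARS and LARS the ranges of the arms met: some EV_B libraries reached the lowest TTP libraries. MARS, the methionyl enzyme, had a log2 change of 0.07 (adjusted p = 0.0231) whose direction depended on the EV clone, as described below.

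Of the complex members that fell, DARS, the aspartyl enzyme (chromosome 2, 135906677 to 135986100), stood at 1918 to 2249 normalized counts (median 2137) in the 8 TTP libraries, against 2419 to 2775 (median 2668) in the 8 EV libraries (log2 change -0.33 ± 0.0308 SE, adjusted p = 3.46e-11). IARS, the isoleucyl enzyme (chromosome 9, 92210207 to 92293756, minus strand), read 5658, 5744, 5806 and 5813 in TTP_E11 and 5648, 5507, 5503 and 5418 in TTP_H3, against 5904, 6152, 6259 and 5948 in EV_A and 7433, 7609, 7601 and 8179 in EV_B (log2 change -0.28 ± 0.0226 SE, adjusted p = 1.07e-12). The TTP libraries lay just under those of EV_A and far under those of EV_B: the log2 changes of TTP_E11 and TTP_H3 were -0.08 and -0.14 against EV_A, and -0.42 and -0.48 against EV_B. EPRS, which charges both tRNA-Glu and tRNA-Pro, had 3406 to 3887 normalized counts (median 3740.5) in the 8 TTP libraries, against 3677 to 4452 (median 4218) in the 8 EV libraries (log2 change -0.16 ± 0.0243 SE, adjusted p = 4.42e-07), with overlapping arms. Its 4 EV_B libraries, between 4438 and 4452, were above all others. Of the scaffolds, AIMP2 fell (log2 change -0.23 ± 0.0382 SE, adjusted p = 2.12e-06), AIMP1 fell by less (log2 change -0.08 ± 0.0319 SE, adjusted p = 0.0337), and EEF1E1 did not pass (log2 change -0.04, adjusted p = 0.422). Against EV_A alone neither AIMP2 (log2 change -0.08, adjusted p = 0.113) nor AIMP1 (0.03, adjusted p = 0.512) passed, and nor did EPRS (-0.06, adjusted p = 0.0679). In all, 5 of the 11 genes of the complex rose, 5 fell and 1 did not pass (35.4% of all genes were higher and 34.6% lower). Their median log2 change was -0.04, and that of all genes 0.00. The counts for the complex were 5 higher and 2 lower against EV_A alone, and 4 higher and 7 lower against EV_B alone.

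Outside the complex, WARS, the tryptophanyl enzyme and a known interferon-inducible gene, fell, with 1966 to 2237 normalized counts (median 2097) in the 8 TTP libraries, against 2304 to 2871 (median 2502) in the 8 EV libraries (log2 change -0.27 ± 0.027 SE, adjusted p = 1.01e-10). NARS, the asparaginyl enzyme, whose promoter window is printed above, stood at 2824 to 3044 normalized counts (median 2919.7) in the 8 TTP libraries, against 3097 to 3705 (median 3406) in the 8 EV libraries (log2 change -0.21 ± 0.0242 SE, adjusted p = 1.93e-09). In both genes all TTP libraries were below all EV libraries. HARS, the histidyl enzyme, rose by less than the distance between the EV clones, with 1867 to 2213 normalized counts (median 2069) in the 8 TTP libraries, against 1683 to 2148 (median 1858) in the 8 EV libraries (log2 change 0.11 ± 0.0289 SE, adjusted p = 0.00092). The highest of these was TTP_H3 replicate 3. HARS did not pass against EV_B alone (adjusted p = 0.96). The annotated exons of HARS share 437 bases with those of HARS2 on the opposite strand, and whether counting used strand is not given in the sources here. Smaller changes passed for GARS (0.11), VARS (0.09) and YARS (0.06), the glycyl, valyl and tyrosyl enzymes, and for FARSA (-0.12), the alpha subunit of the phenylalanyl enzyme. Against EV_B alone the log2 changes of GARS, VARS and YARS were -0.02, -0.12 and -0.17, and against EV_A alone that of FARSA was 0.03. The seryl SARS (0.03), FARSB (0.02), TARS (0.02), the cysteinyl CARS (0.01) and the alanyl AARS (-0.02) did not pass. Each of them changed sign in at least 1 alternative, CARS in 5. TARS, the most abundant, varied between 10038 and 10762 in TTP libraries and between 9959 and 10715 in EV libraries. KARS has 3 annotated pseudogenes named after it, CARS has 2, and GARS, RARS, NARS, AARS, WARS and FARSB have 1 each, so reads could be shared with them.

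**Figure D2:**
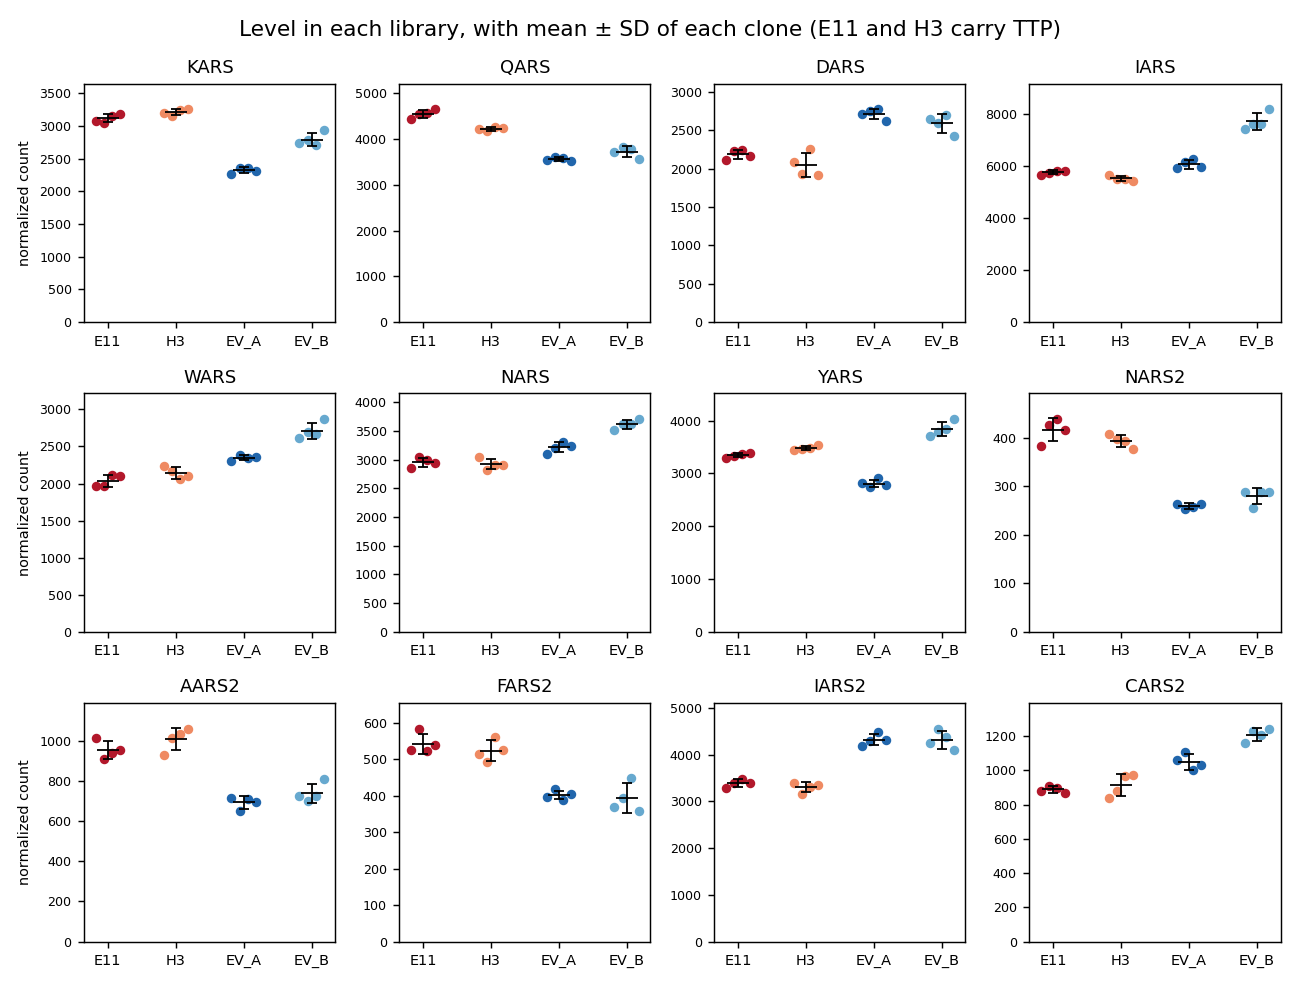
Normalized counts of 12 synthetases in each library (points; E11 and H3 are the TTP clones, EV_A and EV_B the empty-vector clones), with the mean and SD of each clone (n = 4) in black; every axis starts at 0. KARS, QARS, NARS2, AARS2 and FARS2 are higher and DARS, IARS, WARS, NARS, IARS2 and CARS2 lower in all TTP libraries, while for YARS both TTP clones lie between EV_A and EV_B.

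Of the mitochondrial synthetases that rose, NARS2 rose most. NARS2, the mitochondrial asparaginyl enzyme (chromosome 11, 78435961 to 78574874, minus strand), read 384, 427, 439 and 416 normalized counts in TTP_E11 and 408, 397, 393 and 376 in TTP_H3, against 264, 252, 258 and 264 in EV_A and 288, 256, 289 and 288 in EV_B. The arms were well apart and the EV clones close together (log2 change 0.58 ± 0.0473 SE, adjusted p = 1.08e-12). AARS2, which charges mitochondrial tRNA-Ala (chromosome 6, 44299654 to 44313326), had 907 to 1059 normalized counts (median 983) in the 8 TTP libraries, against 648 to 808 (median 713) in the 8 EV libraries (log2 change 0.45 ± 0.0378 SE, adjusted p = 1.89e-12). FARS2, the single-chain mitochondrial phenylalanyl enzyme (chromosome 6, 5261044 to 5829192), had 491 to 583 normalized counts (median 525) in the 8 TTP libraries, against 357 to 449 (median 395) in the 8 EV libraries (log2 change 0.42 ± 0.047 SE, adjusted p = 1.38e-09). HARS2, the histidyl enzyme (chromosome 5, 140691426 to 140699318), stood at 578 to 698 normalized counts (median 627) in the 8 TTP libraries, against 452 to 553 (median 501) in the 8 EV libraries (log2 change 0.32 ± 0.0408 SE, adjusted p = 2.14e-08). None of these 3 overlapped between arms, but 11.7% of the annotated exon bases of HARS2 lie in HARS. The glutamyl EARS2 (0.30), methionyl MARS2 (0.25), arginyl RARS2 (0.22), threonyl TARS2 (0.20), prolyl PARS2 (0.18, adjusted p = 0.0217) and tryptophanyl WARS2 (0.10, adjusted p = 0.0416) also rose. MARS2 and WARS2 did not pass against EV_B alone (log2 change 0.06, adjusted p = 0.427, and 0.06, adjusted p = 0.325), nor PARS2 against EV_A alone (0.12, adjusted p = 0.199).

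Among those that fell, IARS2 (chromosome 1, 220094102 to 220148041, plus strand), the most abundant mitochondrial form, had 3166 to 3482 normalized counts (median 3373) in the 8 TTP libraries, against 4094 to 4549 (median 4296) in the 8 EV libraries (log2 change -0.37 ± 0.025 SE, adjusted p = 1.46e-14). CARS2, the cysteinyl enzyme (chromosome 13, 110641412 to 110713603), had 839.7 to 974 normalized counts (median 889) in the 8 TTP libraries, against 999 to 1242 (median 1133) in the 8 EV libraries (log2 change -0.32 ± 0.0345 SE, adjusted p = 6.44e-10). For IARS2 and CARS2 every TTP library was below every EV library. IARS2 lies 47443 bases from EPRS, on the opposite strand. VARS2, the valyl enzyme, had 848 to 1028 normalized counts (median 983) in the 8 TTP libraries, against 1013 to 1095 (median 1039.7) in the 8 EV libraries (log2 change -0.13 ± 0.033 SE, adjusted p = 0.000894), with overlapping arms, and 22.0% of its annotated exon bases are shared with GTF2H4 on the same strand. The leucyl LARS2 was lower as well (-0.12), but did not pass against EV_A alone (-0.03, adjusted p = 0.514), and the tyrosyl YARS2 (-0.06) and seryl SARS2 (0.07) did not pass. SARS2 had the fewest reads of the 37, 112 in its lowest library, where counting error alone is about 9.45%, and 46.2% of its annotated exon bases lie in another gene on the same strand.

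**Figure D3:**
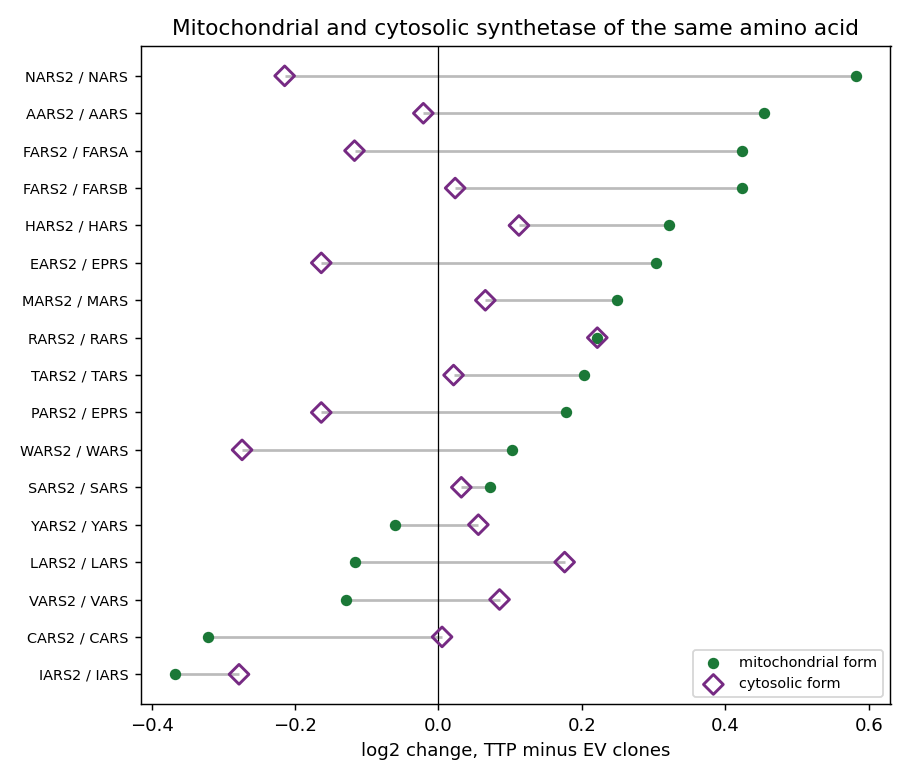
Log2 change, TTP minus EV clones, of the mitochondrial form (filled circles) and the cytosolic form (open diamonds) of the synthetase for each amino acid, in 17 pairs; EPRS stands beside both EARS2 and PARS2, and FARS2 beside both FARSA and FARSB. The forms of asparagine lie furthest apart (0.58 for NARS2 and -0.21 for NARS), whereas both forms for isoleucine are lower.

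Mitochondrial and cytosolic enzymes for the same amino acid were set side by side in 17 pairs, in which EPRS and FARS2 each appear 2 times. Both forms passed in the same direction in 4 pairs and in opposite directions in 7, and in the other 6 at least 1 form did not pass. Over all genes 35.4% were higher and 34.6% lower. How often pairs of unrelated genes show these patterns was not computed, so the counts are not read as particular to the synthetases. Histidine (HARS2 0.32, HARS 0.11), methionine (MARS2 0.25, MARS 0.07) and arginine (RARS2 0.22, RARS 0.22) had both forms higher. Isoleucine (IARS2 -0.37, IARS -0.28) had both lower. A higher mitochondrial and a lower cytosolic form were found for asparagine, tryptophan, glutamate and proline (EARS2 and PARS2 beside EPRS) and for FARS2 beside FARSA. The reverse held for leucine (LARS2 -0.12, LARS 0.18) and valine (VARS2 -0.13, VARS 0.09). Of these 11 pairs, 7 kept their pattern against EV_A alone and 7 against EV_B alone, and those of NARS2, RARS2 and IARS2 kept it against each. By class, 10 of 19 class I genes rose and 7 fell, and 9 of 18 class II genes rose and 4 fell, where 35.4% of all genes were higher and 34.6% lower. Against EV_B alone these counts were 5 and 10 in class I and 7 and 7 in class II.

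The EV clones, neither of which carries TTP, were compared next. In EV_B versus EV_A, 20 of the 37 synthetases were higher in EV_B and 0 were lower, where 20.2% of all genes were higher and 16.6% lower. These were 16 of the 20 cytosolic genes (median log2 change 0.21) and 4 of the 17 mitochondrial ones, MARS2, EARS2, CARS2 and LARS2 (median 0.08), and the median of all genes was 0.01. The cytosolic genes that did not pass were QARS, TARS, CARS and DARS. At an unadjusted p under 0.05, limma and DESeq2 had 0 synthetases lower in EV_B and edgeR had 1, and after adjustment edgeR and DESeq2 had 0.

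The largest of these differences was in YARS, which read 3710.5, 3776, 3845 and 4028 in EV_B against 2808, 2737, 2907 and 2771 in EV_A (log2 change 0.45 ± 0.0329 SE, adjusted p = 3.63e-12). VARS had 8296, 8001, 8059 and 9055 in EV_B against 6297, 6130.3, 6195 and 6336 in EV_A (log2 change 0.42 ± 0.0364 SE, adjusted p = 1.71e-10). MARS2 had 407, 435, 413 and 483 in EV_B against 302, 361, 337 and 334 in EV_A (log2 change 0.38 ± 0.0717 SE, adjusted p = 8.08e-05). In each the 4 libraries of EV_B were above the 4 of EV_A. All 3 scaffolds of the multisynthetase complex were higher in EV_B as well: AIMP2 by 0.30, EEF1E1 by 0.27 and AIMP1 by 0.21 on the log2 scale. Of 13 cytosolic genes known as ATF4-responsive 11 were higher in EV_B (median log2 change 0.20), and of the 7 outside that list 5 (median 0.22). Of the 6 cytosolic genes with TGATGCAA in the promoter 4 were higher in EV_B, and of the 10 with a promoter entry but no match 9. Beside all of these counts, 20.2% of all genes were higher in EV_B and 16.6% lower.

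**Figure D4:**
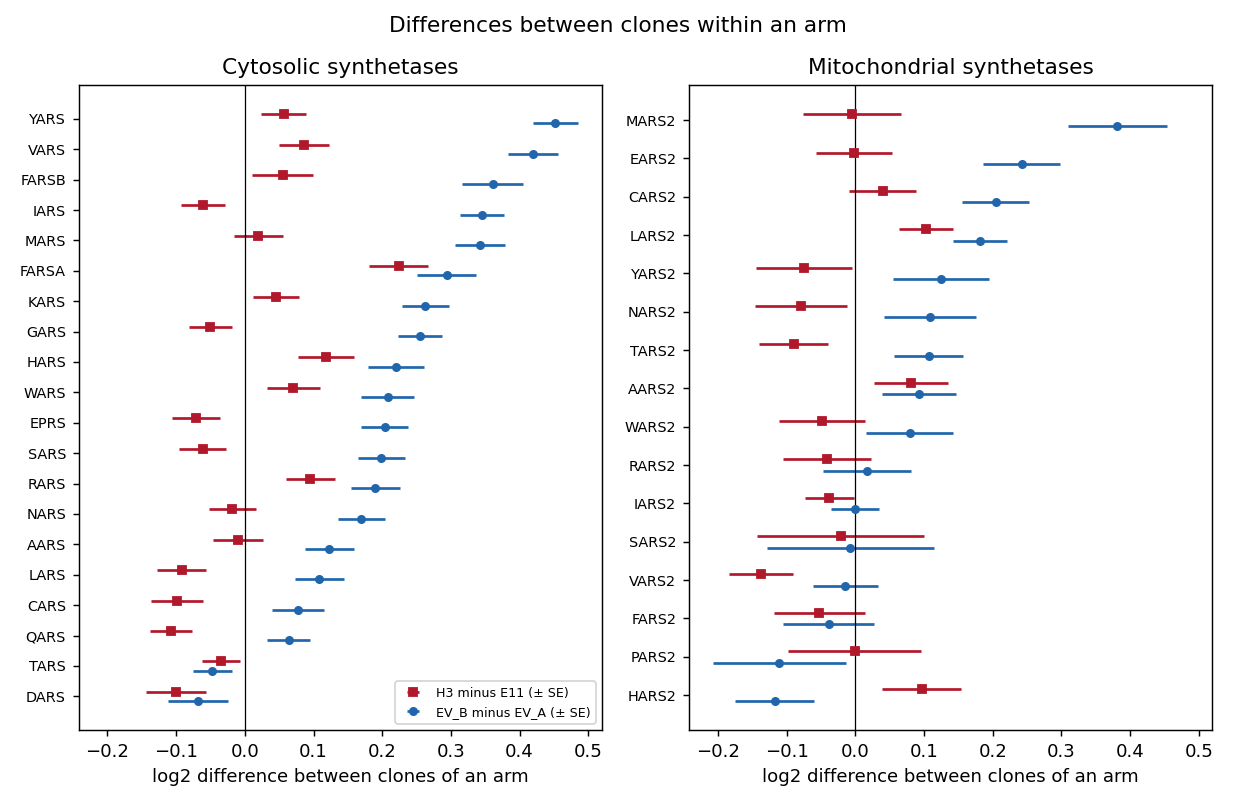
Log2 differences between clones of the same arm for 36 synthetases, with bars of 1 SE: TTP_H3 minus TTP_E11 (squares) and EV_B minus EV_A (circles), for cytosolic (left) and mitochondrial (right) genes. The EV difference is above 0 for all cytosolic genes except TARS (-0.05) and DARS (-0.07), neither of which passed, and reaches 0.45 for YARS.

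The cytosolic counts in TTP also differed with the EV clone used as control. Against EV_A alone 11 cytosolic genes were higher (33.8% of all genes) and 4 lower in TTP (33.4% of all genes). Against EV_B alone 4 were higher (32.3% of all genes) and 12 lower (31.4% of all genes). The mitochondrial counts were 9 higher and 4 lower against EV_A alone, and 8 and 5 against EV_B alone. MARS, YARS and FARSB passed in opposite directions, higher in both TTP clones than in EV_A and lower in both than in EV_B (3 of 37, and 0.713% of all genes did so in either order). With the mean of the TTP clones, VARS (0.29 against EV_A and -0.12 against EV_B) and SARS (0.13 and -0.07) also passed in opposite directions. The share of all genes for this looser rule was not computed. For YARS the log2 changes of TTP_E11 and TTP_H3 were 0.25 and 0.31 against EV_A, and -0.20 and -0.14 against EV_B. The means of both TTP clones lay between those of the EV clones for 6 of 20 cytosolic and 0 of 17 mitochondrial genes, against 10.2% of all genes.

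Each TTP clone was also set against both EV clones. TTP_E11 had 14 synthetases higher (32.6% of all genes) and 10 lower (32.0% of all genes), and TTP_H3 had 17 higher (32.7% of all genes) and 9 lower (32.0% of all genes). These comparisons share their EV libraries. In the direct test of TTP_H3 versus TTP_E11, 1 synthetase was higher (6.35% of all genes) and 1 lower (5.32% of all genes). FARSA read 2582, 2871, 2739 and 2676 in TTP_H3 against 2352, 2234, 2294 and 2419 in TTP_E11, with no overlap (log2 change 0.22 ± 0.0432 SE, adjusted p = 0.000566). Against the mean of the EV clones TTP_H3 did not pass (adjusted p = 0.917), whereas the log2 change of TTP_E11 was -0.23. Both results depended on the EV clone. TTP_H3 was higher than EV_A (0.14, limma adjusted p = 0.0048) and lower than EV_B (-0.15, adjusted p = 0.00305). TTP_E11 did not pass against EV_A (-0.08, adjusted p = 0.0977) and was lower than EV_B (-0.38). QARS read 4218, 4173, 4261 and 4251 in TTP_H3 against 4449, 4546, 4562 and 4654 in TTP_E11, and was higher than in the EV clones in both (0.21 in TTP_H3 and 0.32 in TTP_E11; direct difference -0.11 ± 0.0312 SE, adjusted p = 0.0216). Without TTP_H3 replicate 3 the number that passed was 8, adding CARS, RARS, DARS, LARS, VARS2 and VARS, and it was 4 without EV_B replicate 4 and 1 without TTP_E11 replicate 2 or 3. QARS no longer passed without TTP_E11 replicate 2, 3 or 4.

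**Figure D5:**
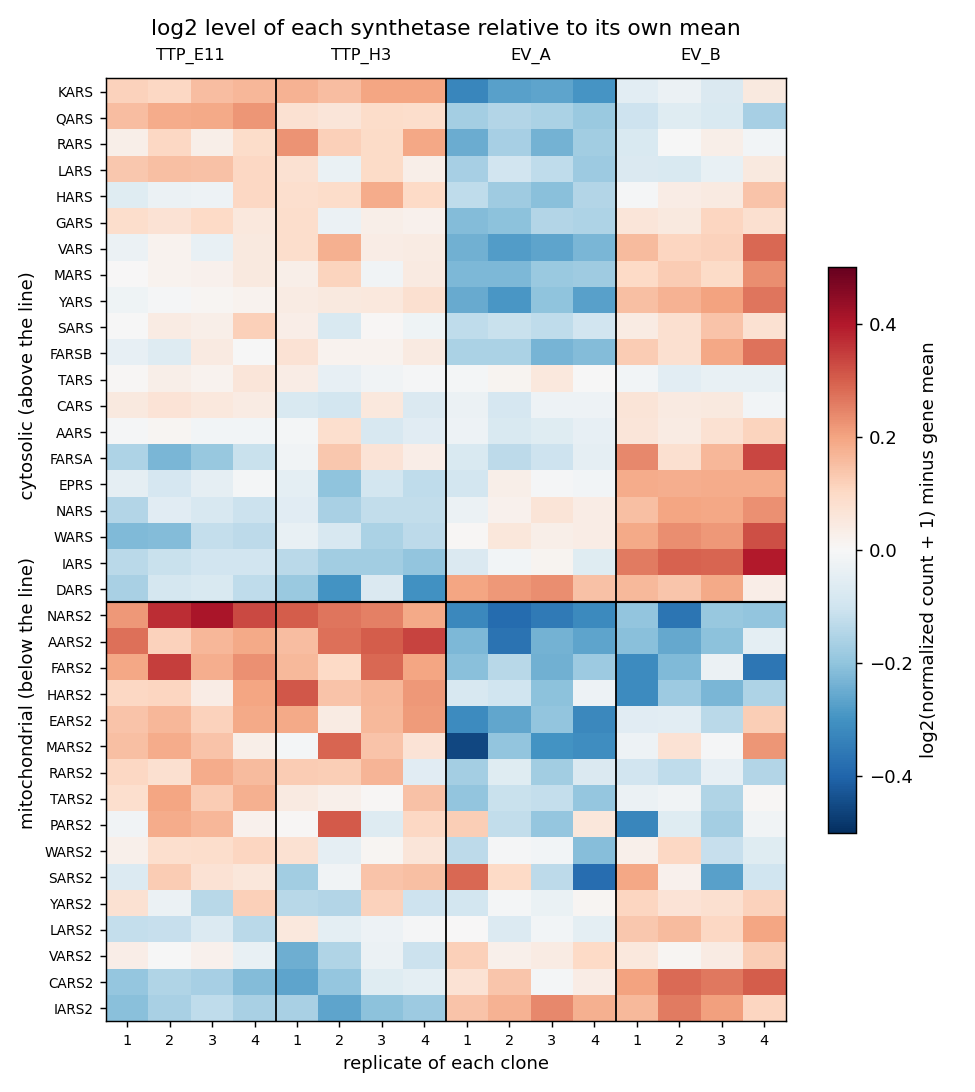
Level of 36 synthetases in each of the 16 libraries, as log2(normalized count + 1) minus the mean of that gene (red above, blue below, scale from -0.5 to 0.5), with clones side by side and cytosolic genes above the line. Cytosolic rows other than TARS and DARS are redder in EV_B than in EV_A. The mitochondrial rows from NARS2 to TARS2 are mostly red and CARS2 and IARS2 blue in both TTP clones.

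Other genes of tRNA charging, processing, modification or export were read from a list of 16. Of these, 9 rose, 4 fell and 3 did not pass in TTP versus EV (median log2 change 0.17). Of all genes 35.4% were higher and 34.6% lower. ELAC2, which trims the 3′ end of tRNA precursors, rose (log2 change 0.28 ± 0.0268 SE, adjusted p = 3.97e-11), as did AARSD1, an alanyl editing protein (log2 change 0.35 ± 0.0786 SE, adjusted p = 0.000231). GATB and GATC, subunits of the mitochondrial amidotransferase that makes glutaminyl-tRNA, rose by 0.17 and 0.22, and its catalytic subunit QRSL1 did not pass (0.03). XPOT, the nuclear exporter of tRNA, fell (log2 change -0.31 ± 0.0253 SE, adjusted p = 1.67e-12). TRMU, which thiolates mitochondrial tRNAs, TRNT1, which adds the CCA end, and MTFMT, the mitochondrial formyltransferase, had log2 changes of -0.27, -0.23 and -0.24 and all passed. MTFMT did not pass against EV_A alone (-0.15, adjusted p = 0.155). Against EV_A alone 9 of the 16 were higher and 3 lower, and against EV_B alone 5 were higher and 4 lower. In EV_B versus EV_A 5 of the 16 were higher and 0 lower, where 20.2% of all genes were higher and 16.6% lower.

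Of 10 genes around the integrated stress response, 5 rose, 4 fell and 1 did not pass in TTP (median log2 change 0.14). For this and the other TTP counts below, 35.4% of all genes were higher and 34.6% lower. ATF4 itself fell, with 2998 ± 122 in TTP_E11 and 2996 ± 55.5 in TTP_H3, against 3249 ± 37.8 in EV_A and 3350.2 ± 69.6 in EV_B (log2 change -0.14 ± 0.0239 SE, adjusted p = 5.07e-06). Among genes known to respond to it, SESN2 (0.82), PHGDH (0.77), CHAC1 (0.69), ASNS (0.53) and ATF3 (0.39) rose, and DDIT4 (-1.14), PSAT1 (-0.50) and DDIT3 (-0.35) fell. Against EV_A alone PSAT1 (-0.08, adjusted p = 0.0618) and ATF3 (0.11, adjusted p = 0.369) did not pass, and in TTP_H3 against EV_B neither ASNS (0.01, adjusted p = 0.864) nor PHGDH (0.24, adjusted p = 0.103) passed. TRIB3 did not pass (-0.11). In EV_B versus EV_A the serine synthesis genes PSAT1 (0.83) and PHGDH (0.70) and the asparagine synthetase ASNS (0.70) were higher, ATF3 was lower (-0.57), and ATF4 did not pass (0.04, adjusted p = 0.326). DDIT3 shares 355 annotated exon bases with MARS on the opposite strand. Of the 13 cytosolic synthetases known as ATF4-responsive, 5 rose, 4 fell and 4 did not pass in TTP (median 0.02), and of the 7 others 4 rose and 2 fell (median 0.11). Of the 13, 6 were higher and 3 lower against EV_A alone, and 1 higher and 9 lower against EV_B alone. The 7 others had 5 higher and 1 lower against EV_A alone, and 3 higher and 3 lower against EV_B alone. Of the 6 with the promoter element, MARS rose, IARS and NARS fell, and AARS, CARS and TARS did not pass. The direction of MARS depended on the control, with log2 changes of 0.24 against EV_A alone and -0.11 against EV_B alone.

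TTP binds AU-rich elements in 3′ UTRs, so UAUUUAU was searched for in the longest annotated 3′ UTR of each gene (GENCODE 29). It was found in 4 of 37 synthetases (10.8%), against 35.2% of 12559 listed genes with such a UTR. The synthetase UTRs were shorter, with a median of 639 bases against 1350 over the listed genes. The 4 genes were EARS2 and WARS2, which rose, FARSA, which fell, and TARS, which did not pass. The longer UUAUUUAUU was found in WARS2 alone among the 37 (2.70%), against 9.33% of the listed genes. It lies at base 1092 of a UTR of 2144 bases, and the site is shown, with the match in capitals, as the one synthetase site of this length.
WARS2 (chromosome 1): uugaccugauUUAUUUAUUguacaagagc
WARS2 stood at 429.6 to 477 normalized counts (median 465) in the 8 TTP libraries, against 382 to 475 (median 432) in the 8 EV libraries (log2 change 0.10 ± 0.0446 SE, adjusted p = 0.0416), a difference that did not pass in 15 of the 29 alternatives.
The 7 lower concordant synthetases held neither motif in these UTRs, which says only that these letters are not in them.

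In the authors' deposited table, 23 of the 37 synthetases passed at an adjusted p under 0.05, 13 higher and 10 lower in TTP. The share of all genes that passed there was not computed here. In limma, which is a different test, 35.4% of all genes were higher and 34.6% lower. Without a share from the authors' own test, these counts are not read as particular to the synthetases. The other 14 in the authors' deposited table included 7 that passed in limma, GARS, HARS, MARS, VARS, YARS, FARSA and WARS2.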

How the data were processed

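RNA of 16 libraries from 4 MDA-MB-231 clones was sequenced after preparation with a NEBNext Ultra II kit, per the labels' protocols. The annotation and strand setting are not given in the sources used here. GRCh38, STAR 2.5.2b, Trimmomatic 0.36, Subread 1.5.2, featureCounts and DESeq2 appear in the submitters' processing notes. The authors deposited a single table of signal per gene, which judging by its values is a count of reads scaled by a size factor of each library and is called a normalized count. Per the file headers it also holds the authors' own log2 fold change of TTP over EV with its p-value and adjusted p-value. The smallest mean was 9.68, and genes with lower levels were not analysed. All values were whole multiples of 1 read within 0.001, which recovers the counts. This also held in replicates 1 and 3 of TTP_H3, where 1 read is worth 1.009 and 0.9975 normalized counts.

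Tests were made with limma 3.58.1 (trend and robust, R 4.3.3) on log2(value + 1), a scale that understates changes of low genes, with 1 fit over 4 clone groups, no filter and Benjamini-Hochberg adjustment over all 14857 genes at 0.05. The method was also run on simulated reads without differences between clones of an arm, so that run does not cover such differences. P-values measure the spread between replicates of a clone and not between clones. As alternatives the recovered reads were tested with DESeq2 1.42.0 and edgeR 4.0.16, and limma was run with TMM or upper-quartile scaling, pseudocounts of 0.1 and 5, genes with a mean of at least 50, 2 groups in place of 4, 1 EV clone as the control, blocks by replicate number, or 1 library fewer. Sums per clone were tested with edgeR. Lowest, median and highest values were given for the 5 cytosolic and 4 mitochondrial synthetases that changed most in each direction among those that passed, and values of each library for the 3 that differed most between clones of an arm. The other members were given by their log2 change. IARS, KARS and NARS2 were also given in each library, and this was chosen after their values were seen. The members and lists were chosen with earlier results of these data known. Positions, exons and 3′ UTRs come from GENCODE 29 on GRCh38, which held all 37 members, and promoters from RefSeq, which matched 30. No protein sequences were used here. The values of 1 synthetase, which is counted in the totals, and the name of 1 marker are not reported here. Counting errors cover counting only.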

Additional observations from a re-analysis of the deposited data

Results flagged for a closer look

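In 5 of 144 groups of 4 libraries (36 synthetases in 4 clones), 1 library lay far from the other 3 of its clone, where chance flags about 1 in 20 groups. Of these, 3 were in TTP_H3 replicate 3, the library that stood apart over all genes. There HARS was at 2213 normalized counts (the other replicates at 2063 to 2083), CARS at 1840.5 (1664 to 1691) and YARS2 at 387 (323 to 333). CARS was at 1675 in EV_A replicate 2 (the others at 1742 to 1745). NARS2 was at 256 in EV_B replicate 2 (288 to 289), still below every TTP library.

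The change against the EV clones differed between the TTP clones for FARSA, by 0.22 on the log2 scale, TTP_H3 minus TTP_E11 (-0.0049 in TTP_H3 and -0.23 in TTP_E11, limma adjusted p of the difference 0.000566). It differed for QARS by -0.11 (0.21 in TTP_H3 and 0.32 in TTP_E11, adjusted p of the difference 0.0216). For FARSA, TTP_H3 was higher than EV_A (0.14) and lower than EV_B (-0.15), and TTP_E11 passed against EV_B (-0.38) but not against EV_A (-0.08).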

How the results depend on the processing

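Over 1073 values of the 37 synthetases in TTP versus EV under the alternatives, 993 kept their direction and their side of the threshold, 59 no longer passed, 5 newly passed and 16 changed sign. With EV_B alone as control, SARS (-0.068), GARS (-0.021), CARS (-0.034), FARSB (-0.16), YARS (-0.17), MARS (-0.11) and VARS (-0.12) changed sign, and 4 cytosolic genes were higher and 12 lower in TTP. With EV_A alone, AARS (0.041), TARS (-0.0024), YARS2 (0.0013) and FARSA (0.030) did. AARS was at 0.021 under upper-quartile scaling, where 22 synthetases were higher in TTP_E11 than in EV and 56.1% of all calls were higher (50.6% as deposited, the median of all genes shifting to 0.04). CARS was at -0.020 without EV_B replicate 4 and TTP_H3 replicate 3 together. With each library left out in turn it ran from -0.011 to 0.013, below 0 without TTP_H3 replicate 3 (-0.011), EV_A replicate 2 (-0.0022) or EV_B replicate 4 (-0.0032). The cause was not tested.

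With reads summed per clone 4280 genes passed in place of 10405, and the cytosolic counts were 1 higher and 1 lower and the mitochondrial 4 and 3, with 4 summed samples. The 2-group model gave 4 cytosolic genes higher. In TTP_H3 versus TTP_E11, 4 synthetases passed with a mean of at least 50, 8 with both libraries that stood apart left out, and 1 to 8 with each library left out in turn. WARS2 lost its call in 15 alternatives and YARS in 9. With each library left out in turn, cytosolic counts were 7 to 9 higher and 6 lower, mitochondrial 9 to 10 higher and 5 lower, concordant 8 to 10 higher and 6 to 7 lower, and EV_B versus EV_A 19 to 21 higher. No sign of pairing by replicate number was seen, which does not exclude it. The 24 same-numbered pairs had correlations of -0.09 to 0.10, 0 of them over 0.1, and 1 of 16 libraries correlated best with its own number. With the replicate block 10354 genes passed, and the counts of cytosolic genes were 9 higher and 6 lower and of mitochondrial genes 9 and 5. At 112 reads for SARS2, counting error limits what can be seen.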
